A study of Mus musculus with 6 samples.

Results

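The costimulatory and checkpoint genes described here are Cd28, Icos, Ctla4, Pdcd1, Tigit, Lag3, Cd274, Havcr2, Btla and Cd2. They were taken by gene symbol, and all 10 were found among the 23725 genes of the deposited tables. The libraries were made from lymph node cells of C57Bl/6 mice labelled as regulatory T cells (Tregs), with RNA of 500 cells per library. Every mouse had been immunised with myelin oligodendrocyte glycoprotein (MOG), also the mice that lacked the protein. Wild-type (WT) mice gave 3 libraries, and 3 more were made from mice with a whole-body knockout of the gene (MOG KO). The comparison is of Tregs from animals in which the immunising protein is a self protein with Tregs from animals in which it is absent. The labels give no age, no sex and no statement that replicates were separate animals, so a p-value reflects only how much these 6 libraries scatter, and that scatter may be in part technical.

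T cells need a signal from a costimulatory receptor beside that of the antigen receptor, and checkpoint receptors damp the response. CD28, ICOS, CTLA-4, PD-1 and BTLA belong to 1 receptor family of the immunoglobulin superfamily. CD28 and CTLA-4 compete for the ligands CD80 and CD86 on antigen-presenting cells. Tregs carry CTLA-4 constitutively and remove these ligands from other cells with it, and ICOS, TIGIT, PD-1 and LAG-3 are commonly found on activated or effector Tregs.

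Cd28, Ctla4 and Icos are neighbours on chromosome 1 (GRCm38, RefSeq annotation), on the same strand and in that order. Cd28 (Entrez 12487) spans 60746388 to 60773359, Ctla4 (12477) spans 60909025 to 60915832 and Icos (54167) spans 60960773 to 61000322. The gaps between them are 135665 and 44940 bases. Pdcd1 (18566), which encodes PD-1, lies far off on the same chromosome from 94038305 to 94052553 on the minus strand. Tigit (100043314) and Btla (208154) share chromosome 16, at 43626137 to 43665125 and 45223705 to 45252895. Cd2 (12481) lies on chromosome 3 from 101275908 to 101287939, Lag3 (16768) on chromosome 6 from 124904359 to 124912434, Havcr2 (171285) on chromosome 11 from 46454931 to 46481255 and Cd274 (60533) on chromosome 19 from 29362107 to 29388095. All 10 are protein-coding, and counts are of reads in their exons. In the GENCODE M21 annotation 511 exon bases of Cd274 are shared with an antisense gene, whose reads cannot be told apart from those of Cd274 because the strand setting of the counting is not given in the sources used here.

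Promoters of 6 of the 10 genes were matched in RefSeq (GRCm38.p6), and those of Ctla4 and Pdcd1 are shown because these inhibitory receptor genes of the same family and chromosome were read in opposite ways, the former in all 6 libraries and the latter in 1. Each run is the 250 bases before the annotated start, 5′ to 3′ on the strand of the gene, at chr1:60908775-60909024 on the plus strand for Ctla4 and chr1:94052554-94052803 on the minus strand for Pdcd1. Capitals mark GGAAA, the core letters bound by NFAT factors of antigen receptor signalling, searched on both strands.
Ctla4: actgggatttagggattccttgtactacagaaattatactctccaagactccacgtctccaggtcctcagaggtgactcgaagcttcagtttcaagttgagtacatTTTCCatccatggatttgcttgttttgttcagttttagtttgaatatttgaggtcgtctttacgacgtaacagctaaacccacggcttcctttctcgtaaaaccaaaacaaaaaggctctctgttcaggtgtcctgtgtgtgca
Pdcd1: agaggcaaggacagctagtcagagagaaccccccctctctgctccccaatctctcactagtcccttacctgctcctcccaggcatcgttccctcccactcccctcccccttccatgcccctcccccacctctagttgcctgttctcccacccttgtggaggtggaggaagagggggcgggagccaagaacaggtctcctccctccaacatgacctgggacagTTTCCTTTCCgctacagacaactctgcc
The Ctla4 window held 1 match and the Pdcd1 window 2, and 55.6% of all promoter windows of this length held at least 1. A match describes the letters and is not evidence of binding.

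Gene counts per library totalled 2717969 to 4472549. Values below are in RPM, the reads of a gene scaled to a library total of 1000000, listed in the order of replicates 1, 2 and 3, WT before MOG KO, and a gene is called present at 10 RPM or more. A count of 0 allows up to 0.671 to 1.10 RPM, the value of 3 counts, depending on the library, and such limits cover counting error only because the method carries no molecular identifiers. The targeted gene, Mog, had 1 count in all libraries together and does not check the labels. Of the Treg markers Foxp3, Il2ra, Ikzf2, Ctla4 and Cd4, 4 were present in all 6 libraries. The exception was Foxp3, the lineage factor, at 8.22 RPM in WT replicate 3 against 326 to 690.2 RPM elsewhere. In the same library Cd3g was at 1.42 RPM, whereas Cd3e (273 RPM) and Cd3d (130 RPM) lay within the range of the other libraries. It also had the fewest genes present (2701, against 3265 to 4440). Both CD8 T cell markers and all 3 NK cell markers had 0 counts in every library. Erythroid markers summed to 69.7 to 151 RPM in WT and 20.6 to 67.5 RPM in MOG KO, plasma cell markers to 1.98 to 358 and 0.462 to 293 RPM, and stromal and endothelial markers to 2.27 to 93.5 and 28.4 to 461 RPM. Xbp1 gave the tops of both plasma cell ranges, with 358 RPM (WT replicate 2) and 292 RPM (MOG KO replicate 2). Of the other plasma cell markers, Sdc1 was at 0 throughout and Igj peaked at 10.3 RPM (WT replicate 1). The top of the last range was Pecam1 in MOG KO replicate 1 (461 RPM). Cdh5, Col1a1 and Col3a1 peaked at 0.290, 2.75 and 1.84 RPM, and Pdpn was at 0 throughout. These sums thus rest mainly on Xbp1 and on Pecam1. The part of erythroid, plasma, stromal and endothelial cells in the results was not tested.

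Costimulatory receptor genes were read in every library of both genotypes. Icos, whose product supports effector Tregs and follicular helper cells, had 916, 822 and 915 RPM across WT and 987, 975 and 1018 RPM in MOG KO. The lowest MOG KO library lay above the highest WT library, and the means were 885 ± 54.0 and 993 ± 22.5 RPM (SD, n = 3 per group), a ratio of 1.12. In edgeR the log2 fold change was 0.10 ± 0.32 (SE) with a 95% interval of -0.63 to 0.83 and an adjusted p of 1. The separation was not kept after TMM scaling (trimmed mean of M-values), where Icos had 944 to 1228 in WT and 1105 to 1223 in MOG KO on the scaled axis. Among the genes tested, 10.5% had groups that did not overlap in RPM, 5.97% with MOG KO higher and 4.57% with WT higher. Bulk values cannot tell fewer cells that express a gene from less RNA of it per cell.

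Cd2, an adhesion and costimulatory receptor that binds CD48 in mice, had 336, 319 and 399 RPM across WT and 357, 350.1 and 414 RPM in MOG KO. The groups overlapped, with replicate 3 the highest library in each. Its log2 fold change was 0.018 ± 0.93 with a 95% interval of -2.13 to 2.17. The interval is far wider than the 1.30-fold span of the 6 values. In edgeR the spread of a gene is moderated towards that of genes at a similar level. The part of this step in the width was not tested. The sign of the Cd2 log2 fold change turned with the RLE scaling of edgeR (relative log expression) in place of TMM (-0.028).

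Cd28, the main costimulatory receptor of T cells, had 744, 532 and 1035 RPM across WT and 723, 285 and 915 RPM in MOG KO. MOG KO replicate 2 was the lowest library, and the other 5 values of the 2 genotypes were interleaved. The log2 fold change was -0.36 ± 0.58 with a 95% interval of -1.70 to 0.99, and it was 0.023 without WT replicate 3. From the lowest to the highest library Cd28 varied 3.64-fold, Ctla4, the next gene of the cluster, 8.24-fold, and Icos 1.24-fold.

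**Figure D1:**
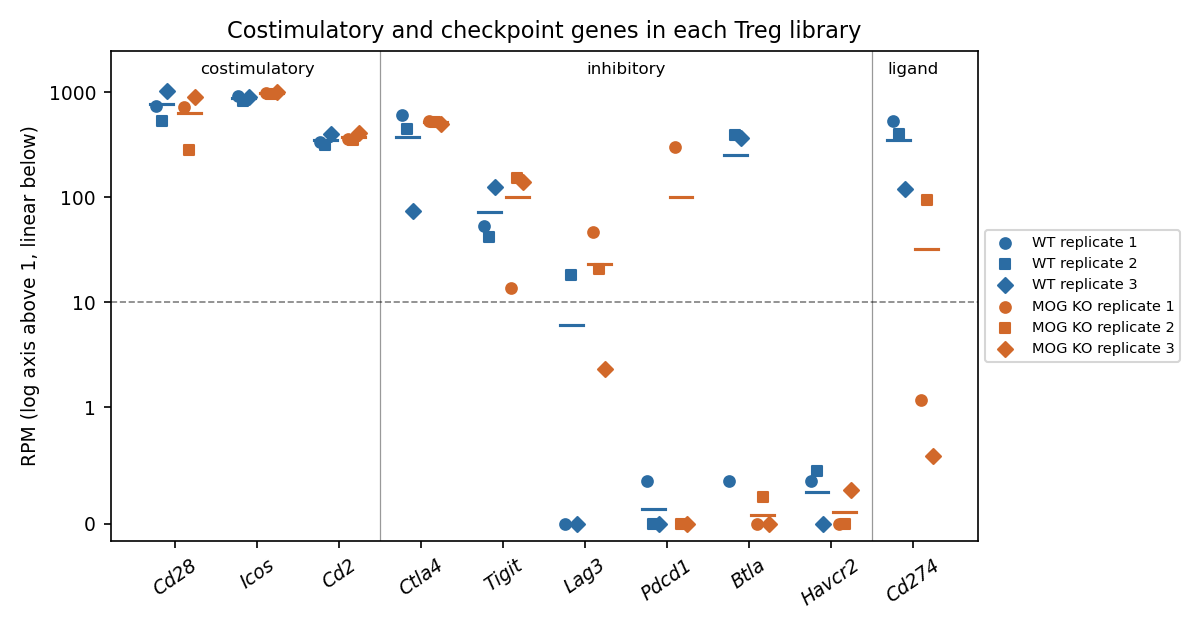
RPM of the 10 genes in each library, on an axis that is logarithmic above 1 and linear below, with WT in blue, MOG KO in orange, a symbol for each replicate number and a bar at each mean of 3; the dashed line marks 10 RPM. Cd28, Icos, Cd2, Ctla4 and Tigit lie above the line in all 6 libraries, and the other 5 genes do not.

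Icos and Cd2 ranked among the most evenly read genes. Over the 3014 genes with a mean of 100 RPM or more, the median coefficient of variation across the 6 libraries was 106%. That of Icos was 7.47%, the 4th lowest of all, and that of Cd2 was 10.1%, the 12th lowest. Cd28 had 38.1% and rank 263, Ctla4 42.5% and rank 315, Cd274 116% and rank 1808, and Btla 155% and rank 2495. With TMM scaling Icos was at 9.48% and rank 1, and Cd2 at 15.1% and rank 20. With RLE scaling Icos was at 23.3% and rank 16, and Cd2 at 29.8% and rank 66. Both scalings were tried after these values were seen, and the ranks are a description with no test.

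**Figure D2:**
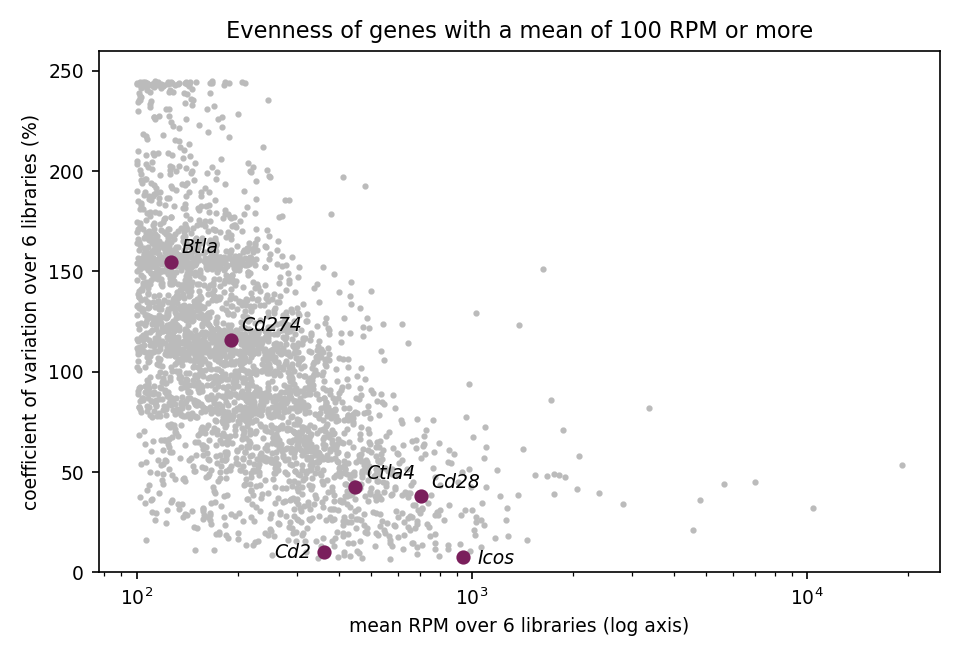
Coefficient of variation over the 6 libraries, in percent, against mean RPM on a log axis for the 3014 genes with a mean of 100 RPM or more; each grey point is a gene, and costimulatory and checkpoint genes are purple. Icos (7.47%) and Cd2 (10.1%) lie at the lower edge, while Cd274 (116%) and Btla (155%) lie among genes read in some libraries only.

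Inhibitory receptor genes ranged from presence in every library to near absence. Ctla4 had 612, 449.9 and 74.3 RPM across WT and 537, 518 and 502 RPM in MOG KO. WT replicate 3 stood alone at the low end, and the MOG KO values lay between those of WT replicates 1 and 2. The log2 fold change was 0.45 ± 0.89 with a 95% interval of -1.63 to 2.53, and -0.0077 without WT replicate 3. That library also had the lowest Foxp3, and the lowest Lck, a kinase of antigen receptor signalling (146 RPM, against 559 to 794 elsewhere), whereas Il2ra (708 RPM) and Ikzf2 (1294 RPM) were not low in it. The part of this library's makeup in the Ctla4 value was not tested.

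Tigit, an inhibitory receptor for CD155 (Pvr), had 53.0, 41.8 and 124 RPM across WT and 13.6, 152 and 139 RPM in MOG KO. MOG KO held both the lowest and the highest library, and the log2 fold change was 0.39 ± 1.85 (95% interval -3.88 to 4.66), or -0.026 without MOG KO replicate 2. Lag3, which binds MHC class II, had 0, 18.3 and 0 RPM across WT and 46.9, 20.9 and 2.32 RPM in MOG KO. It was present in WT replicate 2 and in MOG KO replicates 1 and 2, a pattern of presence that 96 genes of the table had. Its log2 fold change was 1.92 ± 2.58 (95% interval -4.10 to 7.94).

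Pdcd1 was read in a single library. MOG KO replicate 1 held 1294 counts (299 RPM), WT replicate 1 held 1 count, and the other 4 libraries held 0. A total of 397 genes were present in MOG KO replicate 1 alone. The pooled ratio of MOG KO over WT was 1143 with a counting interval of 205 to 45162, which does not carry the spread between libraries. All but 1 of the counts behind it came from MOG KO replicate 1. Havcr2, which encodes TIM-3, had 4 counts altogether, 3 of them in WT, at or under the limit of 3 counts in every library, and no fold is given for it. Neither gene passed the filter on low counts.

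Btla, an inhibitory receptor for HVEM (Tnfrsf14), was present in 2 WT libraries and no MOG KO library. It had 0.368, 391 and 367 RPM in WT (1, 1749 and 1293 counts) and 0, 0.229 and 0 RPM in MOG KO (0, 1 and 0 counts). WT replicate 1 was as near to 0 as the MOG KO libraries, and 117 genes were present in WT replicates 2 and 3 alone. The pooled ratio of WT over MOG KO was 3446 with a counting interval of 618 to 136170, which does not carry the spread between libraries. Btla was too low in 4 libraries to pass the filter, and without a filter its adjusted p in edgeR was 0.449. DESeq2, the other tool, put it past the threshold with a log2 fold change of -11.74 ± 2.80 (SE) and an adjusted p of 0.00213, where it called 10.1% of the 4677 genes it adjusted lower in MOG KO. B cells also express Btla, and 2 of 6 B cell markers were present in some library. Ms4a1 was at 87.3 RPM in WT replicate 3, and Cd79b at 205 RPM in WT replicate 2 and 129.5 RPM in MOG KO replicate 2, where Btla had 1 count. The summed B cell markers ranged from 2.58 to 207 RPM across WT and from 0 to 130.01 RPM in MOG KO, with Cd79a and Pax5 at 0 throughout, and their part in the Btla values was not tested.

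The ligand gene Cd274, which encodes PD-L1, had 529, 401 and 119.6 RPM across WT and 1.16, 94.2 and 0.58 RPM in MOG KO. All 3 WT libraries lay above all 3 MOG KO libraries in RPM and after both scalings, though WT replicate 3 and MOG KO replicate 2 were close. In RPM 4.57% of the genes tested were separated in this direction, and no such share was taken after scaling. The Cd274 means were 350.1 ± 209.6 and 32.0 ± 53.9 RPM (SD, n = 3 per group). The log2 fold change was -3.44 ± 2.35 with a 95% interval of -8.93 to 2.04, an unadjusted p of 0.184 and an adjusted p of 1 in edgeR. It was -8.63 without MOG KO replicate 2, a size that rests on 5 and 2 counts in MOG KO, near the limit of 3 counts. Myeloid and dendritic cells also make PD-L1. Of their 9 markers, 1 was present in any library, the lysosomal gene Cd68, at 188 RPM in MOG KO replicate 2 and 0.693 to 5.89 RPM elsewhere. Their summed level was 7.15 to 22.8 RPM across WT and 6.70 to 195 RPM in MOG KO. None of the 9 was at 0 throughout, and their part in the Cd274 values was not tested.

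None of the 7 genes in the main test passed it. Pdcd1, Havcr2 and Btla were not in that test, and Btla passed the threshold in DESeq2 only. Of the 7 that passed the filter on low counts, 0 had an adjusted p under 0.05 in edgeR (adjusted p = 1 for each) and 0 had an unadjusted p under 0.05. The background was the same, with 0 of 4088 genes called (0%) and 209 genes (5.11%) at an unadjusted p under 0.05. limma-voom also called 0 genes, and DESeq2 called 744, which is 15.9% of those it adjusted. The 95% interval of Icos allows a fall to -0.63 or a rise to 0.83 on the log2 scale, and those of Tigit, Lag3 and Cd274 span more than 8 log2 units each, so differences of several fold were not detectable in these genes.

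**Figure D3:**
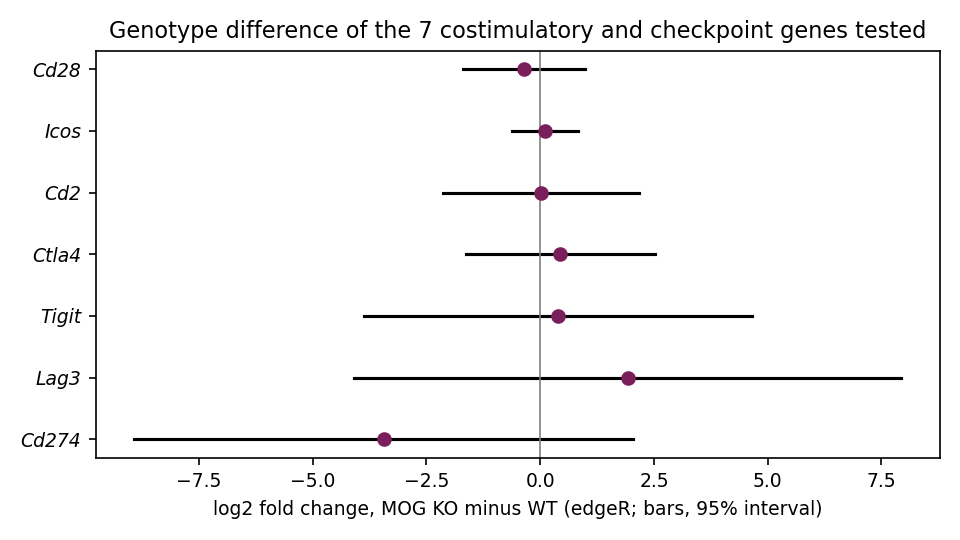
Log2 fold change of MOG KO minus WT in edgeR for the 7 genes that passed the filter, with bars for the 95% interval. Every interval includes 0, the narrowest that of Icos (-0.63 to 0.83) and the widest that of Lag3 (-4.10 to 7.94).

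Levels were compared between genes as RPM per kilobase of exon (RPKM), with the length taken from GENCODE M21 transcripts matched to RefSeq. By the median over 6 libraries the order was Cd2 (306 RPKM, range 277 to 359), Icos (292, 254 to 314), Ctla4 (264, 38.4 to 317), Cd28 (169, 65.5 to 238) and Tigit (96.5, 14.8 to 165). Cd274 followed at 29.5 RPKM (0.16 to 146) and Lag3 at 5.16 RPKM (0 to 23.4). The medians of Btla, Havcr2 and Pdcd1 were 0.092 RPKM or less. The range of each gene overlapped that of the next in this order. With the exons of all annotated transcripts Cd2 moved down to rank 3, at 203 RPKM, behind Icos (276) and Ctla4 (219).

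The balance of Ctla4 against Cd28, whose products compete for the same ligands, varied between libraries, and the genotypes overlapped. The ratio of their RPKM values was 1.85, 1.90 and 0.161 in WT and 1.67, 4.09 and 1.23 in MOG KO, with WT replicate 3 lowest and MOG KO replicate 2 highest. Cd2 over Icos stayed between 1.01 and 1.22 in the 6 libraries. The 10 genes together took 0.319%, 0.298% and 0.303% of counts in WT and 0.297%, 0.239% and 0.299% in MOG KO. Of them 6, 8 and 7 were present in the WT libraries and 7, 7 and 5 in the MOG KO libraries. Of the 10, 5 were present in all 6 libraries and Havcr2 was present in none. The share was 8.90% (704) among the 7909 genes present in any library, a base that leaves out genes such as Havcr2. Among genes with a mean of 100 RPM or more, 4 of 6 members were present in all 6 libraries, beside 650 (21.6%) of 3014 genes.

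Other genes of these pathways were read from 5 lists with 90 genes in the table. Of the 54 that passed the filter 0 were called, 31 had positive and 23 negative values, and the median was 0.14, beside 0.06 over all genes tested. The list of ligands and binding partners had 4 tested of 16, with 2 positive and 2 negative and a median of 0.25, and 7 of the 16 were present in no library. Hmgb1, a nuclear protein that TIM-3 can bind, had 349, 822 and 1651 RPM across WT and 745, 562 and 499 RPM in MOG KO. Cd4, the coreceptor for MHC class II, had 651, 419 and 169.5 RPM and 603, 722 and 592 RPM, with the lowest value in WT replicate 3. The ligand genes of CD28, CTLA-4 and ICOS, named after their values were seen, were read in too few libraries to pass the filter. Icosl had 261, 175 and 0 RPM in WT, Cd80 had 109, 13.2 and 0 RPM and Cd86 0, 37.1 and 0 RPM, and each had 0 counts in all 3 MOG KO libraries. The main edgeR test therefore did not cover the difference between the genotypes in these 3 genes, and all 3 were also at 0 in WT replicate 3. With no filter edgeR called 0 pathway genes, whereas DESeq2 put Icosl and Cd80 past the threshold, lower in MOG KO. Of the 4677 genes that DESeq2 adjusted, it called 10.1% lower in MOG KO. Icosl and Cd80 shared their pattern, 10 RPM or more in WT replicates 1 and 2 and less in the other libraries, with genes that numbered 239 in all. Pvr, the ligand gene of TIGIT on the same list, went the other way and did not pass the filter either. It had 0.736, 0.224 and 0.567 RPM across WT and 372, 408 and 0.58 RPM in MOG KO. Summed B cell markers were 2.58, 207 and 87.3 RPM across WT and 0, 130.01 and 1.74 RPM in MOG KO. Summed myeloid and dendritic cell markers were 22.8, 7.15 and 14.5 RPM and 6.70, 195 and 15.6 RPM. The part of such cells in these values was not tested.

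Receptors of the same families had 8 tested of 18 in the table, 5 positive and 3 negative, with a median of 0.86. Slamf1, a self-binding receptor of the family that CD2 resembles, had 1.47, 19.9 and 0.567 RPM across WT and 192, 429 and 582 RPM in MOG KO. Its groups did not overlap, and its log2 fold change of 5.80 ± 2.22 (95% interval 0.64 to 10.96) had an unadjusted p of 0.0321 and an adjusted p of 0.813 in edgeR. It was the only one of the 54 tested pathway genes with an unadjusted p under 0.05. 4632428N05Rik, now named Vsir and encoding the checkpoint protein VISTA, had 47.1, 722 and 45.6 RPM across WT and 905, 457 and 982 RPM in MOG KO, where WT replicate 2 overlapped the other genotype (log2 fold change 1.53 ± 1.15).

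Genes of receptor-proximal signalling were the most fully covered, with 17 tested of 22, 7 positive and 10 negative, and a median of -0.09. Ptpn6, which encodes the phosphatase SHP-1 recruited by inhibitory receptors, reached 142 RPM in WT replicate 2 and stayed at 2.03 to 5.52 RPM in the other 5 libraries. Bag6, a chaperone that binds TIM-3, had 0, 147 and 139.7 RPM across WT and 32.4, 0.229 and 4.35 RPM in MOG KO. Ptpn6 was thus present in 1 library and Bag6 in 3.

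Genes of trafficking and turnover had 12 tested of 16, 8 positive and 4 negative, with a median of 0.67. Lrba, which protects CTLA-4 from lysosomal degradation, had 2.21, 4.92 and 0.283 RPM across WT and 43.7, 111 and 0.29 RPM in MOG KO. Cblb, a ubiquitin ligase that sets the need for CD28, had 6.62, 0.447 and 0.283 RPM across WT and 65.2, 0.229 and 48.4 RPM in MOG KO. In each gene 1 MOG KO library was as low as WT.

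Transcription factors that control these receptors had 13 tested of 18, 9 positive and 4 negative, with a median of 0.18. Stat3, activated by cytokines such as interleukin 6, had 741, 332 and 680.0 RPM across WT and 0.231, 105 and 201 RPM in MOG KO, with all WT libraries above all MOG KO libraries (log2 fold change -2.56 ± 1.79, unadjusted p = 0.193 and adjusted p = 1 in edgeR). Tox, a factor of exhausted T cells, had 0.368, 22.4 and 0 RPM across WT and 29.6, 0.459 and 315 RPM in MOG KO. Its groups overlapped, with 1 WT and 2 MOG KO libraries at 10 RPM or more. Of the 54 tested genes of the 5 lists, 2 had groups that did not overlap in RPM, Slamf1 and Stat3, beside 10.5% of all genes tested.

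**Figure D4:**
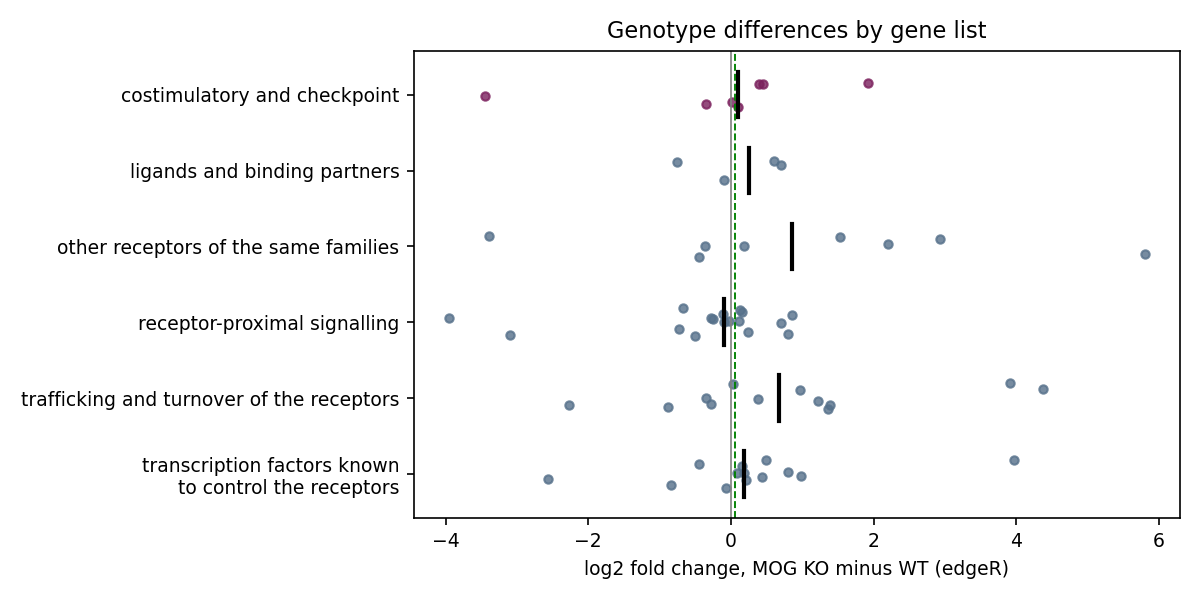
Log2 fold change of MOG KO minus WT in edgeR for the tested genes of each list, 1 point per gene, spread vertically for legibility; black bars mark list medians and the green dashed line the median over all genes tested (0.06). The points of every list lie on both sides of 0.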

How the data were processed

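RNA of 3 WT and 3 MOG KO Treg libraries was reverse-transcribed (SMARTer V3), amplified in 15 PCR cycles and read as single 100-base reads, per the labels' protocols. The deposited count table holds whole-number exon counts per gene, and the RPM table deposited by the authors holds the same counts scaled to totals of 1000000 (differences under 1e-06). STAR 2.3.1, R 3.2.2 and build mm10 are named, per the submitters' processing notes. Not given in the sources used here are the counter, gene models, strand and multi-mapping rule.

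The quasi-likelihood test of edgeR 4.0.16 (R 4.3.3) was run on the counts with genotype as the only term, TMM scaling and robust dispersions. Genes kept by filterByExpr (4088 of 23725) were adjusted by Benjamini-Hochberg, with a threshold of 0.05. The SE is the absolute log2 fold change over the root of the F statistic, with the 95% interval from the moderated degrees of freedom. Steps were tested on data simulated with far less scatter than these libraries have, so that check does not bear on error rates or power here. Alternatives were DESeq2 1.42.0, limma-voom (limma 3.58.1), RLE scaling in edgeR, other filters, a replicate block and leaving out each library.

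The 10 genes and the lists were chosen with earlier results of these data known. All 10 are named, and of each other list up to 4 genes past the threshold or, with none, the 2 of smallest unadjusted p. Tmigd2 and the markers Trac and Hba-a1 were not matched in the table.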

Additional observations from a re-analysis of the deposited data

How the results depend on the processing

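No count of calls changed in edgeR with RLE scaling, no filter on low counts or a filter of 50 counts in 3 libraries. Nor did any change with a replicate block in edgeR, or in limma-voom. Each gave 0 genes, 0 of the 10 genes and 0 pathway genes past the threshold. The same held in edgeR without each library in turn (0 to 0). Only DESeq2 differed, with 744 of the 12317 genes it fitted (271 higher and 473 lower in MOG KO), which is 15.9% of the 4677 it adjusted. Among the genes fitted, DESeq2 called 1 of the 10 (Btla), with no adjusted p for Pdcd1 and Havcr2. It called 6 of the 79 pathway genes fitted, to be set beside 744 of 12317 rather than 15.9%. Of these 6, Slamf1, Pik3r1 and Pvr were higher and Cd80, Icosl and Lgals3 lower. The cause of the difference between the tools was not tested. The number of the 10 genes present in all libraries was 5 at 10 and at 5 RPM, 4 at 20 RPM and 5 without each library in turn.

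Of 84 recomputed log2 fold changes of the 7 tested genes, 11 changed sign, all of genes whose value as reported lay between -0.36 and 0.45; the cause was not tested. Icos was -0.015 in DESeq2, and Cd2 was -0.028 with RLE scaling in edgeR and -0.13 in DESeq2. Tigit was -0.074 in limma-voom and -0.030 with the replicate block. Without 1 library the values ranged from -0.73 to 0.023 (Cd28), -0.0077 to 0.97 (Ctla4), -0.026 to 1.13 (Tigit), -0.066 to 0.22 (Cd2), 0.05 to 0.22 (Icos), 1.02 to 9.41 (Lag3) and -8.63 to -2.83 (Cd274). Lag3 and Cd274 kept their sign in every alternative. With WT replicate 2 left out Lag3 had 0 counts in WT, so its 9.41 depends on the prior count. The -8.63 of Cd274, with MOG KO replicate 2 left out, likewise rests on 5 and 2 counts in MOG KO. Btla passed the filter in 4 of the 6 fits without a library, at -12.94 to -10.74 with an adjusted p of 0.606 to 0.722 in edgeR. No pairing of the libraries by replicate number was seen: deviations from the group means correlated at -0.022 to -0.0022 in same-numbered libraries over 4088 genes. No library correlated best with its own number, and the block changed no count of calls. With 3 libraries per group and large scatter, such a check cannot exclude a pairing or a shared batch.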
